A study of Rosa hybrid cultivar with 39 samples.

Results

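Rose petals of cut stems that stood for 24 h in 80 µM silver nitrate (AgNO3) were compared with petals of stems in deionized water (H2O). The comparison covers 14190 of the 30208 gene identifiers in the data, namely those with an average FPKM of at least 1 in AgNO3 or in H2O. FPKM is a fragment count scaled to transcript length and library size, and the values of transcripts that carry the same identifier were summed.

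The study holds 39 samples in 13 conditions of hormones, inhibitors and controls. All samples are outer petals of Rosa hybrida 'Samantha', a red hybrid tea cultivar grown under a plastic cover, from flowers cut at opening stage 2. Stems in solution or water were kept at one temperature and light period. For flowers exposed to a gas or to air instead, the paper states neither. Each of the 3 AgNO3 and 3 H2O samples pooled several flowers. Their values were deposited as 1 average per condition, so the spread between samples is unknown and no difference below could be tested. The deposited averages carry no read counts, so the depth behind a value is unknown too. The listed read numbers of the AgNO3 and H2O libraries overlapped, while each AgNO3 library had a higher RNA integrity number than any H2O library. Whether RNA integrity has a part in the differences below was not tested.

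Ethylene is a gaseous hormone that speeds the opening and the senescence of many flowers, roses among them. It binds receptors in the membrane of the endoplasmic reticulum, which hold a copper ion, and binding switches off a kinase that otherwise keeps the response down. Silver ions take the place of copper in the receptors and make plants insensitive to ethylene, and silver salts also act against microbes in vase water and are toxic to cells at high dose. The genes carry identifiers that no source used here pairs with a name or function, so the ethylene pathway and the marker genes of petals or of other tissues could not be looked up, and the tissue label could not be checked against them.

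On the deposited scale, petals in AgNO3 held more genes above their H2O level than below it. The balance between both directions changed with the level of the genes. Genes count as higher or lower when their log2 ratio of FPKM plus 1 reaches 1 in size, that is 2-fold, which is a description and no test. By this rule 1125 genes were higher in AgNO3, 7.93% of those compared, and 434 were lower, 3.06%. Together they make 11.0% of the genes compared. The ratio understates the change of genes with low values because of the added 1. In petals, a lower value can come from fewer cells of a type or from less RNA of the gene per cell, which bulk samples cannot tell apart.

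Most genes stayed close to their H2O level. The middle of the log2 ratios lay at 0.09, the lower quartile at -0.27 and the upper at 0.46. The ratio passed 4-fold at 130 higher and 20 lower genes, and 8-fold at 13 higher genes and at 1 lower gene, LOC112187601. Just inside the 2-fold limit LOC112201394 was at 19.1 in H2O and 39.2 in AgNO3, and just outside it LOC112198079 was at 15.2 and 31.4. The split between directions depends on how the averages are scaled. The summed FPKM was 897264 in H2O and 762468 in AgNO3, and with each average divided by its sum 1721 genes were higher and 221 lower. With the averages scaled to a common median over genes of at least 1 FPKM in both, 893 were higher and 630 lower. These scalings moved the middle of all log2 ratios by 0.21 and by -0.12, to 0.30 and to -0.03, so its sign changed with median scaling. The values below are on the deposited scale.

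**Figure D1:**
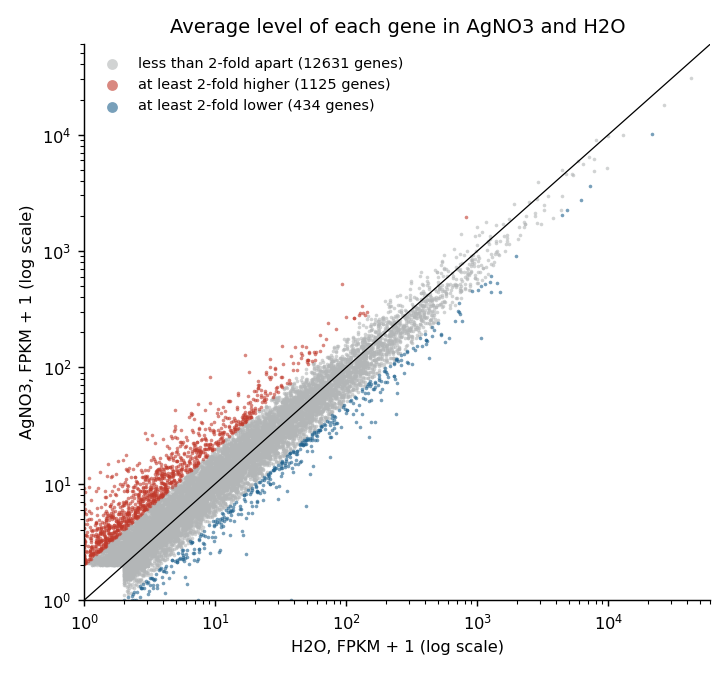
Average FPKM plus 1 of each of the 14190 genes in H2O (horizontal, log scale) and AgNO3 (vertical, log scale), with the line of equal values. Genes at least 2-fold higher (red, 1125) gather at the low end and genes at least 2-fold lower (blue, 434) reach up to the most abundant genes.

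Of the 12 genes with the largest increase, some were nearly silent in water and others had a measurable level. Among the 7576 genes that reached 10 FPKM in AgNO3 or H2O, of which 6.44% were higher and 4.24% lower, the 12 largest log2 ratios ran from 2.98 to 3.37, and 6 of these genes were under 1 FPKM in H2O. LOC112186922 (NC_037089.1:67653461-67668416) was at 0.0803 FPKM in H2O and 10.2 in AgNO3. LOC112185339 (NC_037088.1:68056942-68066233) was at 0.514 and 13.7. LOC112173151 (NC_037093.1:59447534-59451643) was at 0.329 in H2O and 11.5 in AgNO3. All 3 passed from a trace to a moderate level. LOC112192659 (NC_037090.1:39142848-39144529) was the most abundant of the 12 in AgNO3, at 82.1 FPKM against 8.06 in H2O, a 10.2-fold ratio without the added 1. LOC112192375 (NC_037090.1:7724214-7735191) was at 3.90 in H2O and 41.7 in AgNO3, and LOC112189519 (NC_037089.1:47411164-47476122) at 1.93 and 26.2. LOC112187313 (NC_037089.1:65830930-65838776) was at 2.31 and 25.4 FPKM, and LOC112176814 (NC_037094.1:45573138-45576027) at 2.00 and 23.3. These 5 genes were measurable in H2O, so their ratios rest less on the added 1 than those of the silent genes. The deposited locus of LOC112189519 holds 6 identifiers and that of LOC112192375 holds 2. LOC112182253 (NC_037088.1:65537194-65543298) was at 1.07 in H2O and 16.6 in AgNO3, LOC112198162 (NC_037091.1:66659224-66671134) at 0.981 and 14.9, LOC112164745 (NC_037092.1:10669525-10680599) at 0.805 and 14.6, and LOC112174051 (NC_037093.1:51527709-51528868) at 0.480 and 10.7.

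How far the 12 genes were raised elsewhere differed from gene to gene. AgNO3 was the highest of the 12 condition averages at 5 of them, and at the other 7 some other condition was higher. LOC112192659 reached 96.0 in BR, 87.8 in JA and 78.6 in GA3 but 13.9 in NAA and 9.26 in ABA. LOC112174051 was at 39.8 in JA, 23.5 in 1-MCP and 20.0 in GA3, all above its 10.7 in AgNO3. LOC112192375 was at 36.0 in SA and 32.0 in JA, and it stayed near its H2O level in ET-CK, the air control, at 4.03. LOC112182253 had the same order, with 14.0 in SA and 1.47 in ET-CK. All 12 were higher in AgNO3 than in both 6-BA and ABA. LOC112176814, for example, was at 3.69 in 6-BA and LOC112187313 at 0.340 in ABA. The 12 genes were chosen for a high AgNO3 value, which sets these counts in part. The share over all genes compared was not computed.

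Of all genes compared, 3 had an AgNO3 average at least 2-fold above every other condition and 0 had one at least 2-fold below. These genes and the others of this paragraph were chosen after their values were seen. LOC112164745 was one of the 3, with 14.6 in AgNO3, 6.06 in JA as the next and 5.62 in SA. LOC112164511 (NC_037092.1:38934336-38940333) was at 2.64 in AgNO3, 0.816 in BR and 0.0300 in H2O. LOC112197359 (NC_037091.1:67033380-67037261) was listed at 1.09 in AgNO3 and below 0.1 in the other 11 averages. Both were weak even where they were highest. LOC112185339 came next among genes of 10 FPKM or more, with 13.7 against 7.33 in SA. LOC112202825 (NC_037092.1:75757561-75760726) was at 10.3 in AgNO3, 6.45 in SA and 2.63 in H2O. In the opposite direction LOC112167734 (NC_037092.1:74741170-74742930) was at 2.77 in AgNO3, 10.5 in H2O and no lower than 4.45 in the others. AgNO3 was the highest of the 12 averages at 346 of its 1125 higher genes and the lowest at 127 of its 434 lower genes, mostly by less than 2-fold. These genes were called by their AgNO3 value, which sets both counts in part. The share over all genes compared was not computed.

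The genes with the largest decrease were named, like those with the largest increase, from genes that reached 10 FPKM in AgNO3 or H2O, which for a decrease sets their level in H2O. LOC112182880 (NC_037088.1:58942963-58943818) fell from 1066 to 177 FPKM, a 6.03-fold ratio. LOC112201936 (NC_037092.1:69056213-69101527) was at 240.1 in H2O and 38.8 in AgNO3. LOC112200187 (NC_037091.1:66834336-66835130) was at 164 and 32.8, and LOC112173066 (NC_037093.1:59505422-59506832) at 149 and 24.3. All 4 kept a clear level in AgNO3 and none was switched off. LOC112165942, deposited with the locus of LOC112201936, was at 152 and 33.2. LOC112178679 (NC_037094.1:6587884-6589345) was at 73.6 in H2O and 16.1 in AgNO3, LOC112182396 (NC_037088.1:54836954-54838301) at 51.4 and 11.1, and LOC112187899 (NC_037089.1:52553861-52555087) at 34.3 and 7.61. LOC112199856 (NC_037091.1:49286866-49361273) was at 48.4 and 5.43, LOC112187530 (NC_037089.1:88346708-88352759) at 16.2 and 1.49, and LOC112176279 (NC_037094.1:9198300-9198513) at 15.4 and 2.61. Apart from the first-ranked gene, which follows, the log2 ratios of these genes ran from -2.94 to -2.04. The deposited loci of LOC112199856, LOC112187530 and LOC112201936 hold 8, 2 and 4 identifiers.

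The largest decrease of all, at a log2 ratio of -5.23, was that of LOC112187601 (NC_037089.1:30542153-30586886), with 36.6 FPKM in H2O and a listed value near 0 in AgNO3. Its locus holds 4 identifiers. LOC112187519, one of them, was at 34.0 in H2O and 34.7 in AgNO3. LOC112187601 is also listed at nearly 0 in GA3 and at 0.00299 in BR, and it was at 132 in ABA, 107 in 6-BA and 25.8 in SA. How reads were divided between identifiers of one locus was not examined, and a value of nearly 0 may be an estimate that failed.

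AgNO3 was not the condition with the lowest value for most of the strongly lowered genes. It was below both 6-BA and ABA at 11 of the 12, the exception being LOC112199856, at 4.85 in ABA. The 12 genes were chosen for a low AgNO3 value, which sets this count in part, and the share over all genes was not computed. LOC112182880 was at 69.4 in BR and 53.6 in ET-CK, below its 177 in AgNO3, and at 619.7 in 6-BA. LOC112173066 was at 12.7 in BR, 25.6 in SA and 24.7 in GA3, against 145 in ABA and 113 in 1-MCP. LOC112178679 was lowest in AgNO3, at 16.1, followed by 19.8 in SA, and LOC112182396, also lowest in AgNO3, at 11.1, was followed by 12.4 in SA. The loci of most genes named for a decrease were short, with a median of 1436 bases over the 12, against 8569 bases over the 12 genes named for an increase. Both medians include loci that hold several identifiers, so they are not lengths of single genes.

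**Figure D2:**
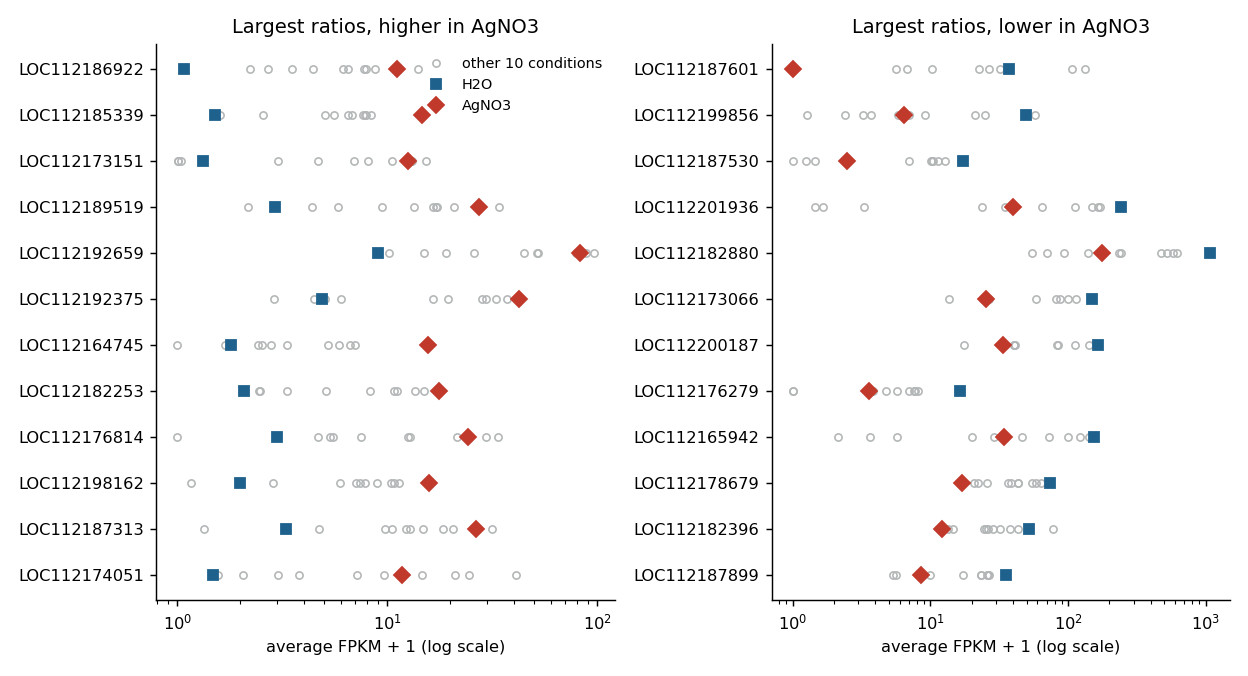
Average FPKM plus 1 (horizontal, log scale) in AgNO3 (red diamonds), H2O (blue squares) and the other 10 conditions (grey circles) of the 12 genes with the largest increase (left) and the 12 with the largest decrease (right). In the left panel LOC112164745 is the gene whose AgNO3 value of 14.6 stands clearest of the other conditions, while in the right panel other conditions often lie below AgNO3.

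Ranked by the difference in FPKM, the decreases were far larger than the increases. LOC112173307 (NC_037093.1:41538888-41540373) dropped from 21422 FPKM in H2O to 10117 in AgNO3. Among the genes of H2O it ranked behind LOC112199140 and LOC112190728 alone. LOC112201018 (NC_037088.1:62444206-62445358) was at 7266 and 3612, LOC112181600 (NC_037088.1:48368583-48371248) at 6187 and 2727, LOC112193037 (NC_037090.1:16670765-16672281) at 4861 and 2240, and LOC112183505 (NC_037089.1:3578242-3581734) at 4400 and 2023. These 5 genes were close to the threshold, with log2 ratios from -1.18 to -1.01, and with each average divided by its sum none of them reached 2-fold. LOC112169651 (NC_037093.1:68365140-68369396) was at 1499 in H2O and 440 in AgNO3, a log2 ratio of -1.77, and was lower still in BR, at 100.3, and in ET-CK, at 20.3. The deposited loci of LOC112169651 and LOC112183505 hold 2 identifiers each.

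Among the increases by FPKM, LOC112201439 (NC_037092.1:36677055-36688584), on a locus with 2 identifiers, came first, at 817 in H2O and 1959 in AgNO3. It was at 3073 in ABA and 2011 in ET-CK but at 799 in SA, 537 in GA3 and 374 in 2,4-D, the last 3 below H2O. LOC112172100 (NC_037093.1:64043167-64049933) was at 91.6 in H2O and 516 in AgNO3, a 5.63-fold ratio, with 487 in SA, 98.9 in 6-BA and 81.9 in ABA. Its log2 ratio of 2.48 was the largest of the 6 genes with the largest increase in FPKM. LOC112199960 (NC_037091.1:13415368-13417877) was at 131 and 334, with 65.2 in BR, and LOC112187798 (NC_037089.1:10403076-10406085) was at 70.9 and 241, with 50.1 in BR. In both genes BR was on the other side of the H2O level from AgNO3. LOC112197664 (NC_037091.1:59996288-59998573) was at 97.7 and 270.0, and LOC112180166 (NC_037094.1:14433882-14434846) at 127 and 290, with 549 in 1-MCP.

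The level of a gene and the direction of its difference went together. Among the 6592 genes with a mean of the 2 averages from 1 to 10 FPKM, 720 were higher in AgNO3, 10.9%, and 136 lower, 2.06%. From 10 to 100 FPKM, 322 of 5680 genes were higher and 191 lower. From 100 to 1000 FPKM the balance turned, with 16 of 1272 genes higher and 88 lower, 6.92%, and at 1000 FPKM or more 1 gene, LOC112201439, was higher and 6 were lower of 81. The median log2 ratio was 0.19, 0.03, -0.25 and -0.37 in these classes. The H2O level takes part in the call, so its medians, 2.18 FPKM over the higher and 32.2 over the lower genes, are set in part by the rule. The median AgNO3 level was 8.12 over the higher genes, 12.9 over the lower genes and 10.3 over all genes compared.

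**Figure D3:**
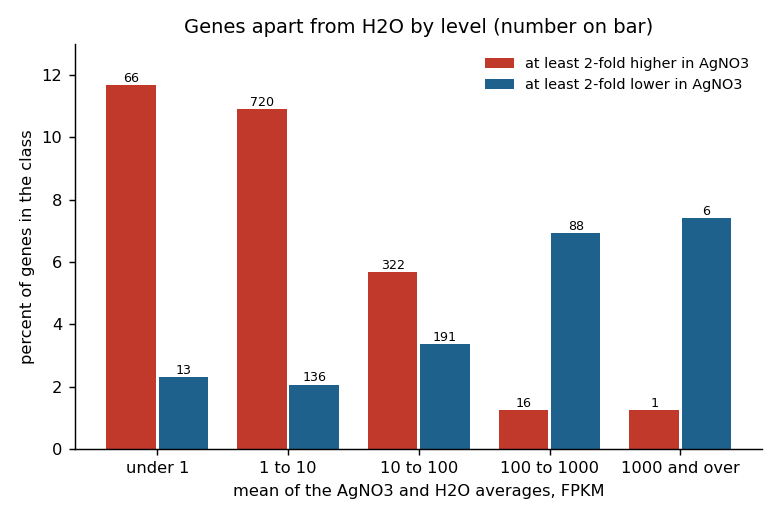
Percent of genes at least 2-fold higher (red) and lower (blue) in AgNO3 than in H2O, by the mean of both averages in FPKM, with the number of genes on each bar. Higher genes make 10.9% of the class from 1 to 10 FPKM and 1.26% of that from 100 to 1000 FPKM, where lower genes make 6.92%.

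More genes reached 1 FPKM in AgNO3 than in H2O, and the most abundant genes took a smaller share. In H2O 13094 genes reached 1 FPKM and in AgNO3 13835. The 100 most abundant genes of each condition made 38.4% of the summed FPKM in H2O and 34.4% in AgNO3. The values were 13845 genes and 34.2% in SA, 13675 and 33.6% in ET-CK, and 13115 and 37.3% in 6-BA. Among all averages H2O had the largest share. The most abundant gene, LOC112199140 (NC_037091.1:32868861-32870605), was at 42339 in H2O and 30362 in AgNO3. The next, LOC112190728 (NC_037089.1:2288893-2290536), was at 26344 and 17947. LOC112182926 (NC_037088.1:59335910-59337462) differed little, at 9946 and 9771, and LOC112174760 (NC_037093.1:59980933-59984505), at 8054 and 8980, was the one gene of the first 10 with a higher value in AgNO3. Of the 14190 genes compared, 65 were listed below 0.1 FPKM in H2O and at 1 or more in AgNO3. LOC112186922 was the most abundant of these. LOC112180024 (NC_037094.1:44744519-44762369) followed at 0.0904 in H2O and 8.38 in AgNO3, and LOC112168888 (NC_037093.1:18738328-18755704) was at 0.0188 and 7.45. In the other direction 9 genes were listed below 0.1 in AgNO3 and at 1 or more in H2O, among them LOC112164242 (NC_037092.1:81859845-81865794), at 6.42 in H2O and 0.00293 in AgNO3. Genes of both kinds passed the minimum of 1 FPKM only through the condition where they were higher. Their values near 0 may be estimates that failed.

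The ratio also followed the length of the locus. The deposited locus spans exons and introns, and for this description the 11744 compared genes alone on their locus were used, ordered by length and divided into 10 classes. In the shortest class, of 213 to 1375 bases, the median log2 ratio was -0.30, and 70 genes were higher and 145 lower, 5.95% and 12.3%. In the longest class, of 7267 to 109538 bases, the median was 0.49, and 228 genes were higher and 4 lower, 19.4% and 0.340%. In between the median grew with each class, from -0.21 in the class next to the shortest to 0.35 in the class next to the longest. With each average divided by its sum the shortest class was at -0.09 and the longest at 0.69, and with median scaling they were at -0.43 and 0.38. The middle length of the 920 higher genes was 4698 bases, that of the 352 lower genes 1556 and that of all 11744 genes 3350.

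Length and level were not the same property. Among genes with a mean of 10 to 100 FPKM, the median log2 ratio was -0.39 for loci under 1500 bases, -0.14 from 1500 to 3000, 0.11 from 3000 to 6000 and 0.37 from 6000 upward. Among genes of 100 to 1000 FPKM the medians over the same lengths were -0.48, -0.27, -0.05 and 0.18, the last over 36 genes. At equal length, the median was lower in the more abundant class in each of these comparisons.

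The same description was made for the other treatments. They share the H2O average with AgNO3, so the values are given side by side and no agreement is drawn from them. In SA the median log2 ratio was -0.35 in the shortest class and 0.49 in the longest. In BR it was -0.32 and 0.45, in GA3 -0.25 and 0.39, in NAA -0.20 and 0.25, in JA -0.09 and 0.29 and in 2,4-D 0.01 and 0.13. In 6-BA it was 0.03 and -0.04 and in ABA 0.07 and -0.07. In 1-MCP over ET-CK, which uses neither H2O nor AgNO3, it was 0.10 and -0.04.

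**Figure D4:**
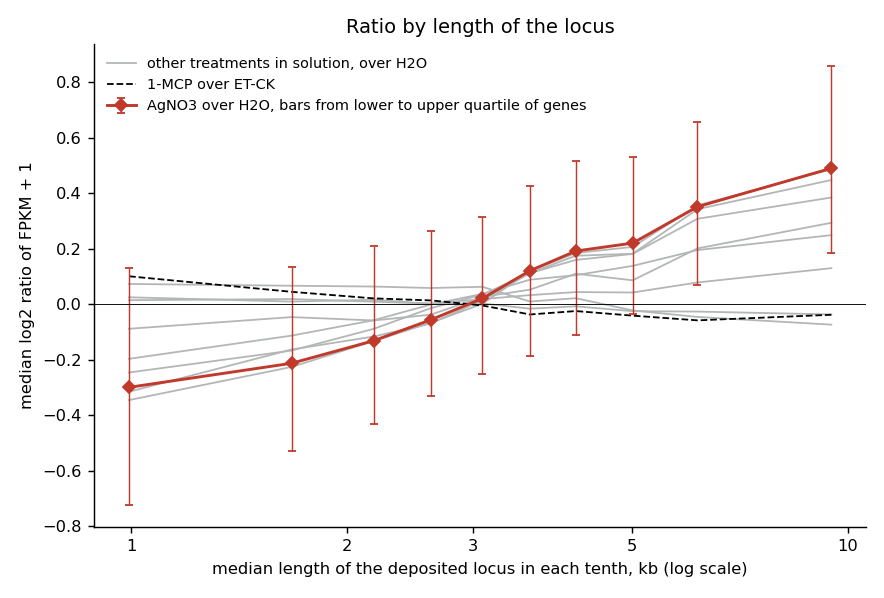
Median log2 ratio of FPKM plus 1 (vertical) over genes in 10 classes of locus length (horizontal, median length in kb, log scale), for AgNO3 over H2O (red, bars from the lower to the upper quartile of genes), the other treatments in solution over H2O (grey) and 1-MCP over ET-CK (dashed). The AgNO3 median runs from -0.30 in the shortest class to 0.49 in the longest.

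Sums over a gene hid differences between its transcripts. Of 508 genes with at least 2 transcripts of 5 FPKM or more in either condition, 276 had a transcript at least 2-fold apart, while 26 were 2-fold apart as a sum. The first count takes any of 2 or more transcripts, which raises it by definition. Over all genes compared 11.0% were 2-fold apart as a sum. Without summing, 2311 of all 15612 single transcripts of at least 1 FPKM were 2-fold apart. That minimum is lower than the 5 FPKM used for the 508 genes. In 83 of the 508 genes, 16.3%, a transcript was at least 2-fold higher and another at least 2-fold lower in AgNO3. As a sum, 81 of these 83 were under 2-fold. The genes named here are among those with the widest gap between their transcripts. They were chosen after their values were seen, and the rows give no transcript names. LOC112192313 (NC_037090.1:6916497-6919859) had a transcript at 33.3 FPKM in H2O and 0.297 in AgNO3, and its main transcript was at 135 and 198. One more, at 23.9 in AgNO3, was at least 2-fold below that in H2O. Its sum moved from 173 to 224. LOC112175617 (NC_037094.1:8096042-8101515) had a transcript at 20.1 in H2O and 0.00117 in AgNO3 and another at 7.88 and 44.4. The transcript that was nearly lost in AgNO3 was at 3.74 in SA, 28.6 in 6-BA and 28.1 in ABA. LOC112164721 (NC_037092.1:9919590-9925548) had one that was at 40.8 in H2O and nearly lost in AgNO3, one at 16.4 and 4.28, and one at 17.4 and 52.0. LOC112170538 (NC_037093.1:64437303-64446374) went from 31.9 to 2.53 in one transcript and from 8.82 to 47.9 in another, and LOC112188336 (NC_037089.1:19587301-19591075) from 32.5 to 1.57 and from 20.7 to 52.0. Its sum was 53.2 in H2O and 53.6 in AgNO3. In the last 4 genes the main transcript of H2O was not the main one of AgNO3, while the sums stayed within 2-fold. The most lowered transcripts of LOC112192313, LOC112164721, LOC112170538 and LOC112188336 were low in SA too, at 0.538, 0.00248, 5.15 and 2.14. How the software divided reads between transcripts of a locus was not examined.

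**Figure D5:**
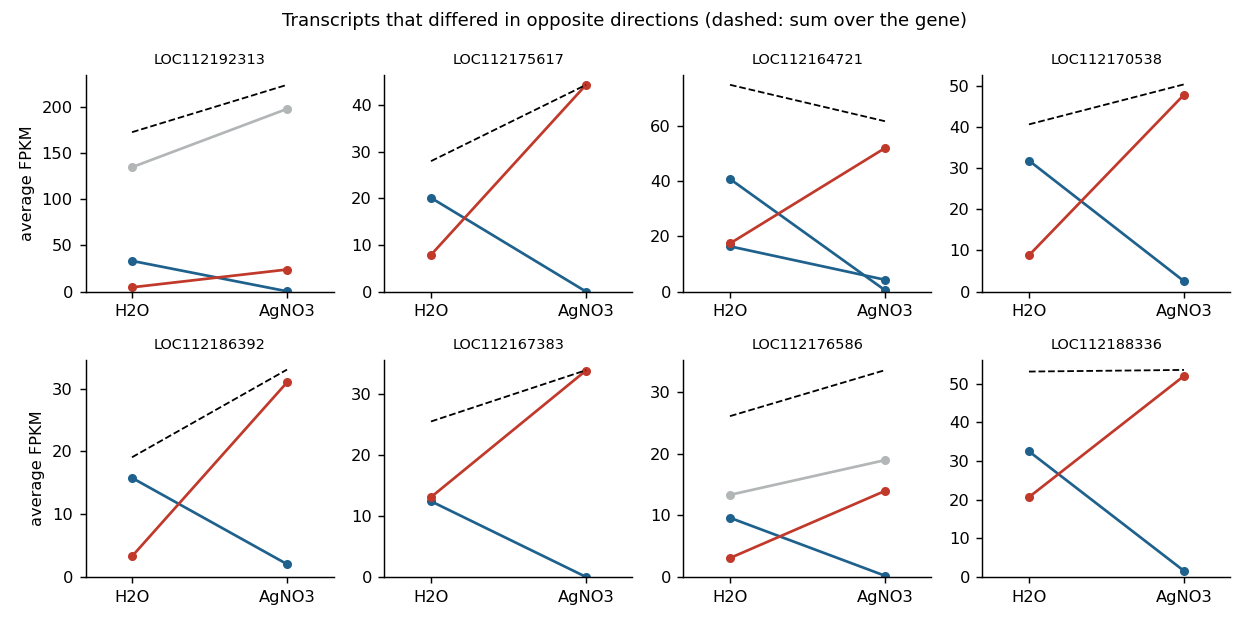
Average FPKM of the transcripts of 8 genes in H2O and AgNO3, for the genes with the widest gap between transcripts at least 2-fold higher (red) and at least 2-fold lower (blue) in AgNO3, with transcripts in between in grey and the sum over the gene dashed. The sum of LOC112188336 stays near 53 while its 2 transcripts cross.

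The differences lay on all chromosomes at similar shares, with a few runs of neighbours. On the 7 chromosomes the share of higher genes ran from 7.05% to 8.43% and that of lower genes from 2.70% to 3.28%. In 16 places 3 neighbouring compared genes were all higher and in 1 place 5, where 4 of the runs of 3 hold identifiers that share a deposited locus, and 1 run of 3 and 1 of 7 were all lower. The longest run of lower genes held 7 identifiers on NC_037092.1 from 68870396 to 69101527, which lie on 4 deposited loci. LOC112164904, the one alone on its locus, was at 399 in H2O and 192 in AgNO3. LOC112167184 was at 138 and 59.3, LOC112166493 at 8.73 and 2.24, and LOC112201936 and LOC112165942 belong to the same run. The last 2 were at 0.672 and 1.14 in ET-CK, whereas LOC112164904 was at 312 there, so the run did not move as 1 unit in all conditions. The longest run of higher genes held 5 genes, each alone on its locus, on NC_037094.1 from 14407693 to 14434846. LOC112177455 was at 0.555 in H2O and 3.13 in AgNO3, LOC112177456 at 2.55 and 8.12, LOC112177457 at 15.5 and 44.8, LOC112177458 at 9.96 and 26.8 and LOC112180166 at 127 and 290. Their log2 ratios lay between 1.19 and 1.47. In JA the first 4 were at 14.1, 11.7, 69.9 and 44.6. In BR LOC112177458 was at 6.47 and LOC112180166 at 89.9, below their H2O values.

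Set directly against the other conditions, most of the 1559 genes called in AgNO3 were close to their SA and GA3 levels, as were most genes compared. In SA 1492 of them, 95.7%, were less than 2-fold from AgNO3, against 99.2% of all 14190 genes. In GA3 it was 1465, 94.0% against 97.9%, and in JA 1337, 85.8% against 96.7%. In 6-BA it was 562, 36.0% against 90.1%, and in ABA 406, 26.0% against 82.3%. The genes called were chosen for their distance from H2O, so these shares are given as values. The remaining 67 genes were at least 2-fold from SA, 55 of them higher in AgNO3 than in both H2O and SA. The genes named here are among those with the widest direct gap and were chosen after their values were seen. LOC112177842 (NC_037094.1:35793360-35850404) was at 19.5 in AgNO3, 3.21 in SA and 4.88 in H2O, and LOC112167847 (NC_037088.1:46164403-46174440) at 20.1, 4.61 and 3.25. Both were higher still in JA, at 45.3 and 140, and in ET-CK, at 56.5 and 86.2. LOC112188587 (NC_037089.1:6611965-6626460) was at 33.4 in AgNO3, 9.58 in SA and 65.9 in ABA, and LOC112188563 (NC_037089.1:69002924-69004345) at 16.9, 4.58 in SA and 74.3 in BR. The deposited loci of LOC112177842, LOC112167847 and LOC112188587 hold 7, 2 and 3 identifiers. LOC112168074 (NC_037092.1:70413193-70414188) went the other way, with 82.1 in AgNO3 and 624 in SA. As these are single averages, none of the gaps could be tested.

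1-MCP, a gas that blocks the same receptors, was compared with its own control ET-CK. The values deposited for ethylene repeat those of ET-CK, so whether the latter are those of air cannot be told. Of the genes compared in both, 1040 were higher in AgNO3. Their median log2 ratio of 1-MCP over ET-CK was -0.07, with 17 genes, 1.63%, 2-fold above ET-CK and 43, 4.13%, below it. Over all genes of the 1-MCP comparison the shares were 1.73% and 1.23%, and over the 13513 genes also compared for AgNO3 they were 1.72% and 1.08%. For the 411 genes with lower FPKM in AgNO3, the counts were 21, 5.11%, and 8, with a median of 0.09. Of the genes named above, LOC112168074, higher in AgNO3, had 3.05 FPKM in 1-MCP against 57.7 in ET-CK, and LOC112177842, also higher in AgNO3, had 8.61 against 56.5. LOC112199856, lower in AgNO3, had 2.23 against 56.6. These shares were not tested.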

How the data were processed

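RNA of outer rose petals was sequenced by the authors, who mapped cleaned reads to the Rosa chinensis 'Old Blush' genome RchiOBHm-V2 with TopHat2, merged Cufflinks assemblies with Cuffmerge and computed FPKM with Cuffdiff. The values deposited are FPKM averaged over the 3 samples of a condition, for each transcript, which removes the spread between samples. The sources used here do not give the scaling of FPKM between conditions. The authors' own test, DESeq, needs counts of each sample.

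FPKM of 38170 transcripts were summed per identifier. 9 identifiers join neighbouring genes. Log2 ratios of FPKM plus 1 were taken for genes of at least 1 FPKM in AgNO3 or H2O, and 2-fold was used to describe them. Positions and lengths are those of the deposited loci, some of which hold several identifiers. Named genes are the 12 with the largest log2 ratio up and down, provided they reached 10 FPKM in AgNO3 or H2O, and the 6 largest FPKM differences in each direction among genes 2-fold apart. Others are marked in the text. The members and lists were chosen with earlier results of these data known. Lists based on gene descriptions, promoter motifs and marker genes could not be matched to identifiers. The single column deposited for ethylene repeats the air control and was not used. The code was run on a copy of the H2O averages with known fold changes put in and no noise. The outcome of that run follows from the rule, so it checks the code and not the differences reported. Alternatives were other pseudocounts, minimums, thresholds and scalings, single transcripts and joined identifiers left out. Python 3.11.15, numpy 2.4.6, pandas 2.3.3 and matplotlib 3.10.9 were used.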

Additional observations from a re-analysis of the deposited data

How the results depend on the processing

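With a pseudocount of 0.1, 2446 genes were at least 2-fold apart and 1802 higher. A minimum of 5 FPKM left 747 higher genes. With the limit on the log2 ratio at 0.5, 5194 genes were apart, 3271 higher and 1923 lower, 63.0% higher, and with it at 2 there were 150, 130 and 20, 86.7% higher. With transcripts not summed 757 were lower. Scaling by the sum of FPKM gave 1721 higher and 221 lower genes, 88.6% higher, and median scaling 58.6% higher, against 72.2% as deposited. The median log2 ratio of the longest of 10 classes of loci lay 0.79 above that of the shortest, and between 0.76 and 0.95 with the other settings, except for 0.16 with no minimum, where silent genes enter at a ratio of 0. Another pseudocount, minimum or scaling and leaving out joined identifiers reversed none of the 36 named genes, and 5 fell under 2-fold with scaling by the sum. Genes with 1 transcript include 35 of them and genes of 10 to 100 FPKM 13, none reversed. Scaling by the sum, genes with 1 transcript and genes of 10 to 100 FPKM were alternatives chosen after the data had been seen. Leaving out single replicates was not run. No paired analysis was possible because each condition has 1 averaged value, without replicates.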
